A study of Mus musculus with 6 samples.

Results

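Bile acids are made from cholesterol in hepatocytes, and the genes of this route and of its feedback control were measured in 6 livers of male mice of the C57BL/6 strain at an age of 8 weeks, of which 3 were WT and 3 HMGB2-KO. HMGB2 is a chromatin protein that bends DNA, and the series asked which genes follow its expression. The labels name no treatment, surgery, allele, feeding state or hour of collection, and they do not say whether the knockout acts in every tissue. The 10 genes were taken by their symbols, Cyp7a1, Cyp8b1, Cyp27a1, Nr0b2, Nr1h4, Baat, Slc27a5, Slc10a1, Fgfr4 and Klb. Each stood on 1 probe set of the Clariom S mouse array, out of 22203 probe sets with a gene symbol.

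Bile acids arise by more than one route. The classic route begins with the enzyme encoded by Cyp7a1, whose abundance sets the pace of synthesis, and Cyp8b1 decides how much of the product becomes cholic acid. The other route begins with Cyp27a1 in mitochondria. Slc27a5 and Baat then join bile acids to amino acids, and Slc10a1 takes returning bile acids up from blood. Bile acids activate the nuclear receptor FXR, encoded by Nr1h4, which raises Nr0b2 (SHP, a repressor of Cyp7a1 and Cyp8b1). In the intestine FXR raises the hormone FGF15, which acts on hepatocytes through the receptor Fgfr4 and its partner beta-Klotho, encoded by Klb.

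Values are on a log2 scale on which each gene had been centred by the authors, so 0 is a zero peculiar to each gene and levels of different genes cannot be compared. Whether hepatocyte markers were abundant could not be read from such values. No source states the log base, and log2 was inferred from how far the values reach. Differences are HMGB2-KO minus WT with the standard error (SE) of the limma fit, and levels have the standard deviation (SD) of 3 livers. In whole liver, fewer cells of a type and less RNA per cell cannot be told apart. The titles number the 3 livers of a genotype, and the labels do not say in words that each came from a separate mouse. The spread behind each p-value is that between livers of a genotype. WT replicate 2 stood apart, with a median over all probe sets of 0.26 against -0.05 to 0.01 in the other arrays, and as deposited the median probe set lay at -0.12 in HMGB2-KO minus WT. Hmgb2 itself read 0.48, 0.62 and 0.38 in WT and -0.70, -0.38 and -0.48 in HMGB2-KO. All 3 HMGB2-KO livers thus lay below all 3 WT livers for the targeted gene, although its limma adjusted p was 0.469.

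None of the 10 bile acid genes differed between the genotypes by the test. limma called 0 of 10 at an adjusted p of 0.05, and 0 of all 22203 probe sets (0%). An unadjusted p under 0.05 held for 0 of the 10 genes and for 1092 of all probe sets (4.92%). The adjusted p of the 10 genes ran from 0.852 to 0.995. Their median difference was -0.24 as deposited, or -0.11 relative to the median probe set, with 7 of 10 genes below it. All 10 HMGB2-KO means lay below the WT means as deposited, where 77.4% of all probe sets did so. With each array centred on its median this held for 7 of 10 genes and for 51.5% of all probe sets, and Cyp8b1, Baat and Slc27a5 turned to the higher side. Without HMGB2-KO replicate 1 the median of the 10 relative to the median probe set was 0.01, and without WT replicate 3 it was -0.0026.

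**Figure D1:**
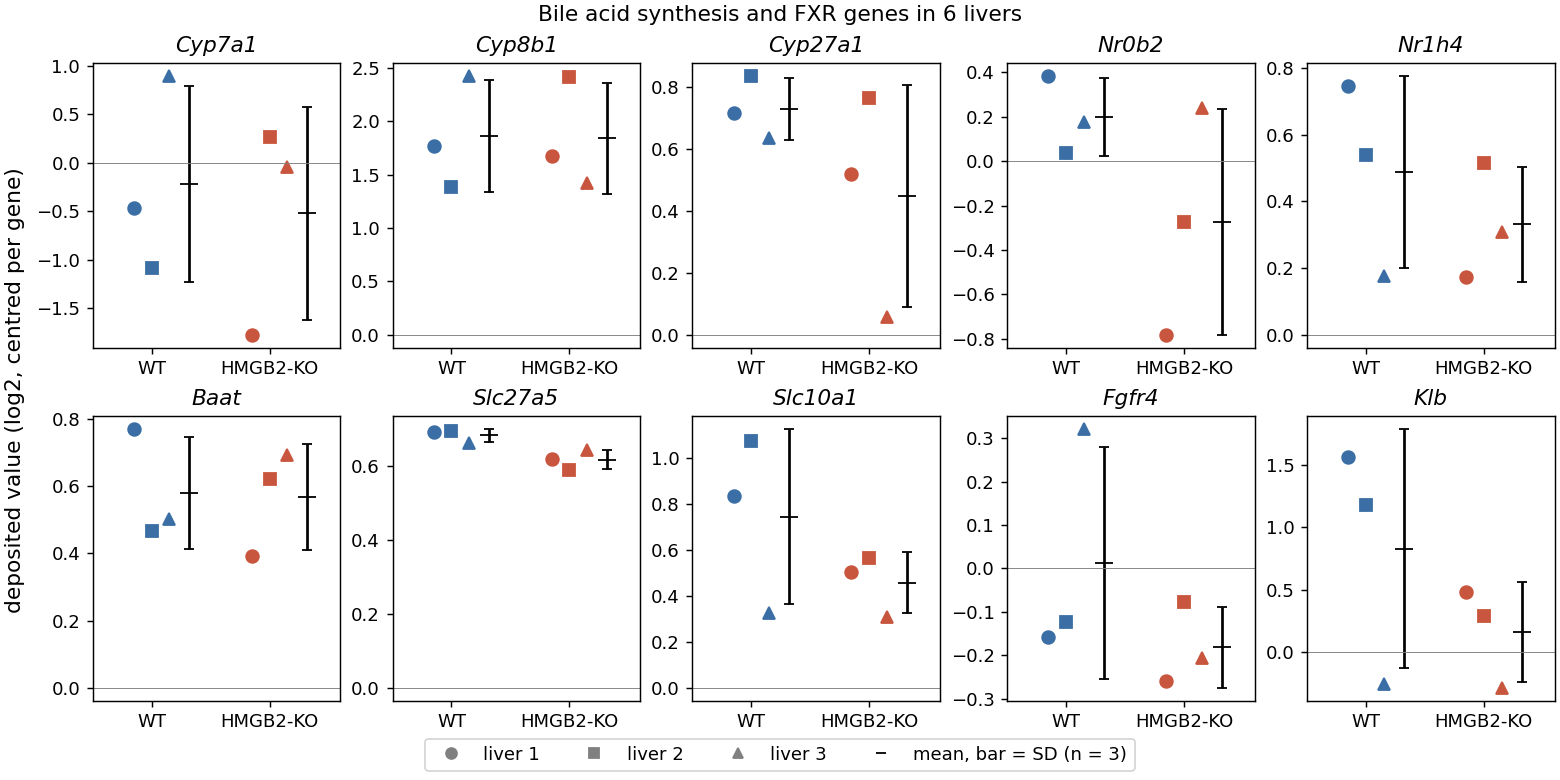
Deposited log2 values (vertical axis, centred per gene) of the 10 genes in 3 WT livers (blue) and 3 HMGB2-KO livers (red), with the liver number as the shape of the point and the mean with its SD beside each group, on a scale of its own for each gene. Slc27a5 spans a narrow range, and Cyp7a1 spans from -1.78 to 0.90.

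Of the genes that open the classic route, Cyp7a1 had the widest span of the 10. In the order of the liver numbers, which holds for every gene below, it read -0.47, -1.09 and 0.90 in WT and -1.78, 0.26 and -0.05 in HMGB2-KO. The highest liver was WT and the lowest HMGB2-KO, and the groups overlapped over most of their range. On centred arrays these extremes were 6.42-fold apart, a span wider than that of 98.96% of all probe sets. The genotype difference was -0.30 ± 0.64 (SE, limma adjusted p 0.942), with a 95% interval from -1.78 to 1.18. It was 0.26 without WT replicate 3 and 0.33 without HMGB2-KO replicate 1, so its sign rested on single livers.

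Cyp8b1, the sterol 12-alpha-hydroxylase, read 1.77, 1.39 and 2.43 in WT and 1.68, 2.42 and 1.42 in HMGB2-KO. The WT mean of 1.86 ± 0.52 (SD, n = 3) and the HMGB2-KO mean of 1.84 ± 0.52 were nearly equal, and each genotype held 1 liver well above the rest. The difference was -0.02 ± 0.33 (SE, limma adjusted p 0.995), and 0.10 with arrays centred. Its 95% interval, from -0.79 to 0.75, left room for a change in either direction. Cyp27a1, the mitochondrial sterol 27-hydroxylase, read 0.72, 0.84 and 0.63 in WT and 0.52, 0.77 and 0.06 in HMGB2-KO. The low HMGB2-KO mean came mostly from replicate 3, without which the difference went from -0.28 to -0.09, while it was -0.44 without HMGB2-KO replicate 2 and -0.16 with arrays centred.

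Of the conjugation genes, Slc27a5 had the narrowest span of all 10. This bile acid CoA ligase gene read 0.69, 0.69 and 0.66 in WT and 0.62, 0.59 and 0.64 in HMGB2-KO. It was the 1 gene of the 10 whose groups did not overlap, with HMGB2-KO lower, where 10.9% of all probe sets did the same and 0.779% had HMGB2-KO higher. The difference was -0.07 ± 0.12 (SE, limma adjusted p 0.932) as deposited, which is less than the shift of the median probe set, and it turned to 0.05 with arrays centred. Its span on centred arrays was 1.21-fold, and 8.46% of all probe sets had a narrower one. Baat, which couples the activated bile acid to an amino acid, read 0.77, 0.47 and 0.50 in WT and 0.39, 0.62 and 0.69 in HMGB2-KO. The groups overlapped throughout and the means were 0.58 ± 0.17 (SD, n = 3) and 0.57 ± 0.16, a difference of -0.01 that was 0.11 with arrays centred. The 95% intervals reached from -0.36 to 0.22 for Slc27a5 and from -0.37 to 0.35 for Baat.

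Slc10a1, the sodium-dependent uptake transporter NTCP, read 0.83, 1.07 and 0.33 in WT and 0.50, 0.56 and 0.31 in HMGB2-KO. WT livers 1 and 2 lay above every HMGB2-KO liver, and WT liver 3 lay among them. The difference was -0.29 ± 0.21 (SE, limma adjusted p 0.852), with -0.50 when WT replicate 3 was left out, -0.12 when WT replicate 2 was, and -0.17 with arrays centred.

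Among the feedback genes, Nr0b2 had the smallest unadjusted p for genotype. It read 0.38, 0.04 and 0.18 in WT and -0.78, -0.27 and 0.24 in HMGB2-KO. HMGB2-KO livers 1 and 2 lay below all WT livers, and liver 3 above WT livers 2 and 3. The difference was -0.47 ± 0.26 (SE, limma unadjusted p 0.107, adjusted p 0.852), becoming -0.73 when HMGB2-KO replicate 3 was left out and -0.22 when HMGB2-KO replicate 1 was. As deposited, HMGB2-KO replicate 1 was the lowest of all 6 livers for Nr0b2 and Cyp7a1, and also for Nr1h4, Baat and Fgfr4. With arrays centred it was the lowest for Nr0b2, Cyp7a1 and Nr1h4. Nr1h4, the receptor FXR itself, read 0.75, 0.54 and 0.18 in WT and 0.17, 0.51 and 0.31 in HMGB2-KO. The groups overlapped, and the difference of -0.16 ± 0.19 (SE, limma adjusted p 0.887) shrank to -0.04 with arrays centred.

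Klb had the largest mean difference of the 10 genes, although its groups overlapped. It read 1.56, 1.18 and -0.26 in WT and 0.48, 0.29 and -0.29 in HMGB2-KO. WT livers 1 and 2 were the highest of the 6, and liver 3 was low in both genotypes. The difference was -0.67 ± 0.45 (SE, limma unadjusted p 0.180, adjusted p 0.852), with a 95% interval from -1.72 to 0.38. It went to -1.21 when WT replicate 3 was left out (limma adjusted p over all probe sets 0.510), to -0.30 when WT replicate 1 was, and to -0.44 when HMGB2-KO replicate 3 was. Fgfr4, the receptor that Klb assists, read -0.16, -0.12 and 0.32 in WT and -0.26, -0.08 and -0.21 in HMGB2-KO. WT liver 3 was high and the other 5 livers lay close together. The Fgfr4 difference of -0.19 ± 0.17 (SE, limma adjusted p 0.859) was -0.04 without WT replicate 3 and -0.08 with arrays centred.

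**Figure D2:**
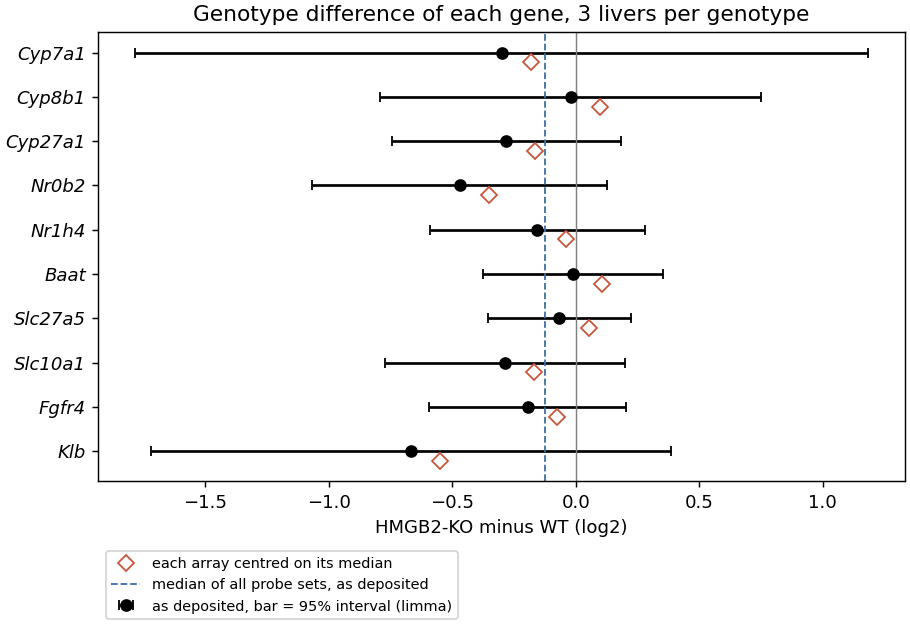
Genotype difference of each gene in log2 units (horizontal axis, HMGB2-KO minus WT), with 3 livers per genotype. Filled points are values as deposited with the 95% interval of the limma fit, open diamonds are values with each array centred, and the dashed line is the median probe set at -0.12. Every interval includes 0, and the widest belongs to Cyp7a1.

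The 10 genes were also compared by the liver number in the titles. A moderated F-test in limma compared the 3 numbers, with 2 livers each and genotype as a covariate. The titles do not say that livers with the same number belong together. The test called 2 probe sets at an adjusted p of 0.05 (0.00901%), and 5.84% of all probe sets had an unadjusted p under 0.05. Of the 10 bile acid genes 1 had such a p and 0 passed the adjusted threshold. That gene was Klb, with means of 1.02, 0.74 and -0.27 for numbers 1, 2 and 3 (limma unadjusted p 0.00888, adjusted p 0.686). Both livers numbered 3 were the lowest of their genotype for Klb, and they read nearly the same value, -0.26 and -0.29. Without WT replicate 3 the unadjusted p of Klb was no longer under 0.05, when number 3 is left with 1 liver.

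Cyp7a1 had the widest spread of number means among the 10, at -1.12, -0.41 and 0.43 for numbers 1, 2 and 3. Liver 3 was the highest WT liver by a wide margin, while in HMGB2-KO liver 2 stood above liver 3. The limma unadjusted p was 0.108 and the adjusted p 0.826. The spread of 1.55 ran from 0.84 to 2.30 with 1 array left out, which leaves 1 liver at a number. It was 1.95 without WT replicate 2 and 2.07 without HMGB2-KO replicate 2. With array weights and every array kept, the limma unadjusted p of Cyp7a1 for liver number was 0.0322 (adjusted p 0.799). Slc10a1 was lowest at number 3 in both genotypes, with number means of 0.67, 0.82 and 0.32 (limma unadjusted p 0.113). Cyp8b1 did not share an order between the genotypes, since liver 3 was the highest WT liver and the lowest HMGB2-KO liver. Slc27a5, Baat, Fgfr4, Nr1h4, Nr0b2 and Cyp27a1 had limma adjusted p from 0.826 to 0.999 for liver number.

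**Figure D3:**
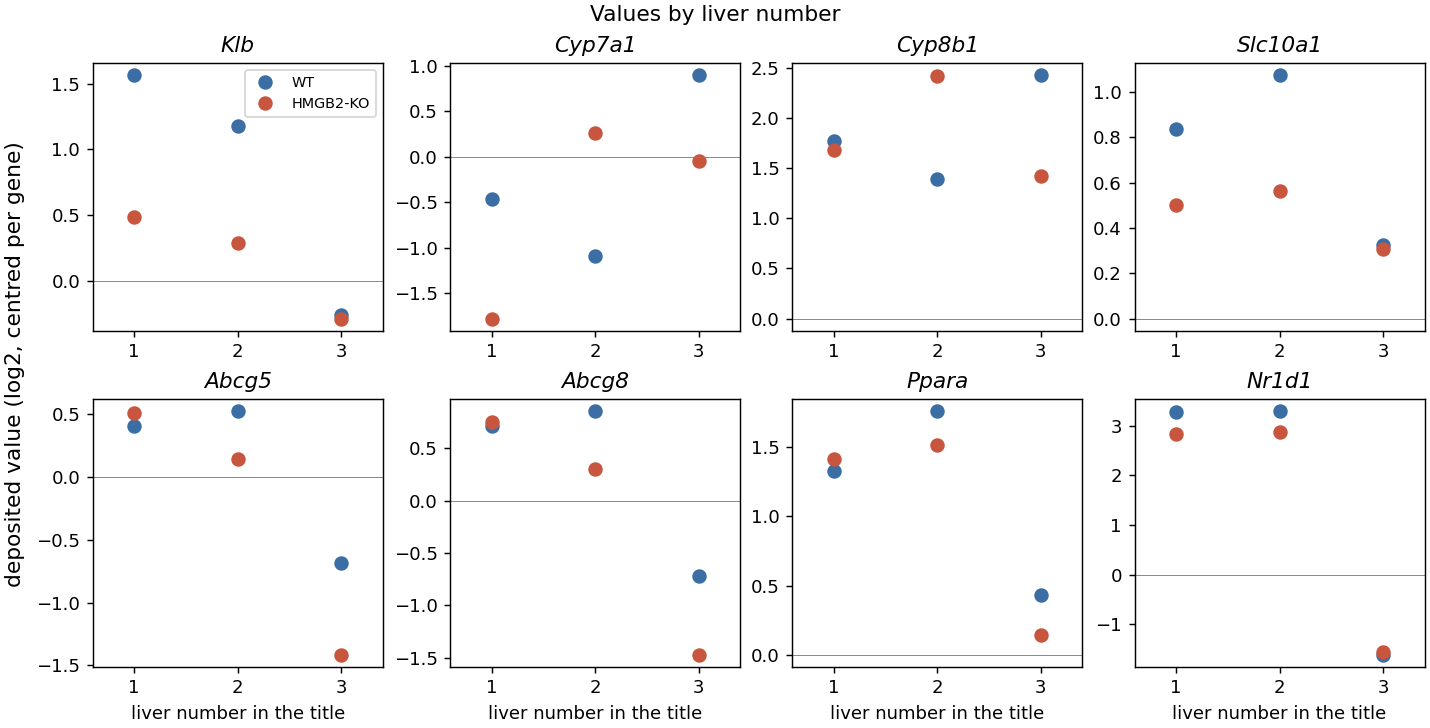
Deposited log2 values (vertical axis, centred per gene) against the liver number in the titles (horizontal axis) for WT (blue) and HMGB2-KO (red), 1 point per liver. Klb, Slc10a1, Abcg5, Abcg8, Ppara and Nr1d1 are lower in both livers numbered 3 than in the other livers of the same genotype.

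The 2 probe sets called for liver number were Nr1d1, a clock repressor, and Dbp, a clock output factor. Nr1d1 read 3.28, 3.29 and -1.61 in WT and 2.84, 2.86 and -1.56 in HMGB2-KO (limma adjusted p 0.00886). Dbp read 3.66, 5.24 and 0.05 in WT and 4.38, 5.50 and 0.06 in HMGB2-KO (limma adjusted p 0.00886). Both were far lower in the livers numbered 3, and both calls were lost with quantile normalization (limma adjusted p 0.0581), without WT replicate 2 (0.0647 and 0.0850) and without WT replicate 3 (0.0870 each). The call of Dbp was also lost without HMGB2-KO replicate 3 (limma adjusted p 0.0655). Of 21 probe sets of 19 clock genes, 2 passed the adjusted threshold for liver number, 15 had an unadjusted p under 0.05 for it beside the 5.84% of all probe sets, and 0 had one for genotype. The part of the clock genes in the number pattern of Klb was not tested.

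Promoters of the genes were read from RefSeq (GRCm38.p6), as 250 bases before to 50 after the start, and 7 of the 10 genes had an entry, in 8 windows because Slc10a1 has 2. Cyp7a1, Baat and Slc27a5 were not among them. Motifs were searched on both strands. The nuclear receptor half-site AGGTCA was found in the window of Nr1h4 and in 1 of the 2 windows of Slc10a1, and in 16.3% of all 32851 windows. Both windows with a match belong to starts inside the gene, at chr10:89506609-89506908 for Nr1h4 and chr12:80968030-80968329 for Slc10a1. On the minus strand these genes begin at 89533645 and 80968705. The same half-site after CA, which resembles the site of LRH-1 (encoded by Nr5a2), was in none of the 7 and in 1.56% of all. Paired half-sites with 1 base between them, inverted as FXR binds them or in direct repeat, were in none of the 7, and in 0.00913% and 0.0396% of all. Any paired match also counts as a half-site. The E-box CACGTG, which clock activators bind, was found in Nr0b2, from base -195 relative to the start, and in 7.15% of all. Such a match is a description of letters and not of binding. The promoters of Nr0b2, the feedback gene with the smallest p for genotype, and of Klb, the gene with the smallest p for liver number, are shown with the E-box in capitals. That of Nr0b2 lies at chr4:133553126-133553425 on the plus strand and that of Klb at chr5:65348161-65348460 on the plus strand, where none of the motifs was found.
Nr0b2: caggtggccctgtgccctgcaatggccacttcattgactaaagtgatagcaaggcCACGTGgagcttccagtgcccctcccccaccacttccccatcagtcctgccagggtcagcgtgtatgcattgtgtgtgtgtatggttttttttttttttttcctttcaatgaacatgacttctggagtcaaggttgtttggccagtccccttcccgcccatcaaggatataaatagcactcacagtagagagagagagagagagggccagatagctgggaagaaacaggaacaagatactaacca
Klb: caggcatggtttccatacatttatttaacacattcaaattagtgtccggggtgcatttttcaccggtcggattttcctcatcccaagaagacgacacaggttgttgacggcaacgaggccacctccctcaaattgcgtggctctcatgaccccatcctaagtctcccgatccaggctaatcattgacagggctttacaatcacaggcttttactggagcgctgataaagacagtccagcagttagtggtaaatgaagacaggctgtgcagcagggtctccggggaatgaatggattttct

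For genotype, limma called 0 probe sets at the adjusted threshold in each of 4 further lists of the bile acid pathway. As 0 of all 22203 probe sets (0%) passed, these counts say nothing particular to the pathway. Of 18 other synthesis enzymes 1 had an unadjusted p under 0.05, on the lower side, where 4.85% of all probe sets were lower at that level and 0.0721% higher. The median of this list lay -0.02 from the median probe set. That gene was Abcd3, a peroxisomal transporter that brings in bile acid precursors, with 0.57, 0.61 and 0.71 in WT and 0.02, 0.24 and 0.46 in HMGB2-KO. As deposited all 3 HMGB2-KO livers lay below all WT livers (difference -0.39 ± 0.16 SE, limma adjusted p 0.852). With arrays centred the groups overlapped and its limma unadjusted p was 0.150, which left 0 of the 18 under 0.05. Without overlap as deposited were 2 of the 18, both lower, beside the 10.9% of all probe sets. Akr1d1, the steroid 5-beta-reductase, had a WT mean of 0.38 ± 0.27 (SD, n = 3) and an HMGB2-KO mean of -0.07 ± 0.21 (limma unadjusted p 0.0503). Akr1c6, an aldo-keto reductase, stood at 0.22 ± 0.08 and 0.05 ± 0.09, and its groups overlapped with arrays centred, where the difference went from -0.17 to -0.06.

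Among 15 bile acid transporters 1 had an unadjusted p under 0.05 for genotype, on the lower side. Of all probe sets 4.85% were lower at that level and 0.0721% higher. The median of the list lay 0.03 from the median probe set. Slco1a4, an uptake carrier of the blood-facing membrane, read 0.06, 0.35 and -0.60 in WT and -0.53, -1.26 and -1.06 in HMGB2-KO. The lowest WT liver, number 3, lay just below the highest HMGB2-KO liver. Abcg2, an efflux pump, had a WT mean of 0.38 ± 0.28 (SD, n = 3) and an HMGB2-KO mean of 0.60 ± 0.06. Slco1a1, another uptake carrier, stood at 0.89 ± 0.31 and 0.69 ± 0.22. Leaving out WT replicate 1 gave an Abcg2 difference of 0.09, leaving out WT replicate 3 gave 0.36, and Slco1a1 went to -0.04 when WT replicate 2 was left out. Neither difference exceeded the spread between livers by the test (limma adjusted p 0.852 and 0.875).

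Abcg5 and Abcg8, the partners that form the pump that moves cholesterol into bile, followed the liver number. Abcg8 read 0.71, 0.85 and -0.72 in WT and 0.75, 0.30 and -1.47 in HMGB2-KO (limma unadjusted p 0.000451 for number, adjusted p 0.228). Abcg5 read 0.41, 0.52 and -0.68 in WT and 0.51, 0.14 and -1.41 in HMGB2-KO (limma unadjusted p 0.00132, adjusted p 0.346). Both were lowest in liver 3 of each genotype, as Klb was, without passing the adjusted threshold. An unadjusted p under 0.05 for liver number held for 2 of 18 synthesis enzymes, 2 of 15 transporters, 3 of 18 regulators and 3 of 19 FXR targets, beside the 5.84% of all probe sets. In the synthesis list Cyp39a1, an oxysterol 7-alpha-hydroxylase, had number means of -0.72, 0.80 and -0.33. Slc27a2, an acyl-CoA synthetase that activates bile acid precursors, had number means of 0.43, 0.71 and 0.11.

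Of 18 regulators 0 had an unadjusted p under 0.05 for genotype, beside 4.92% of all probe sets. The median of the list lay 0.07 from the median probe set. Nr1i2, the xenobiotic receptor PXR, had a WT mean of 0.40 ± 0.44 (SD, n = 3) and an HMGB2-KO mean of -0.07 ± 0.21. The difference of -0.47 was -0.21 without WT replicate 2. Mafg, a repressor of bile acid genes, differed by 0.86, and this came from WT replicate 2, which read -2.54 against -0.04 to 0.41 in the other livers. Without that liver the difference was -0.04. Foxa2, a transcription factor of hepatocytes, differed by -0.37, or -0.01 without WT replicate 3, which read 0.87. For liver number, Ppara, the fatty acid receptor, read 1.33, 1.76 and 0.43 in WT and 1.42, 1.52 and 0.14 in HMGB2-KO (limma unadjusted p 0.000942, adjusted p 0.301). Zfp36l1, an RNA-binding protein that lowers Cyp7a1 mRNA, had number means of -0.74, -1.59 and -0.31. Its highest mean, like that of Cyp7a1, was at number 3. The lowest mean was at number 2 for Zfp36l1 and at number 1 for Cyp7a1. For both genes liver 3 was the highest in WT only. In HMGB2-KO, Zfp36l1 read -0.80 in liver 1 and -0.92 in liver 3.

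Of 19 measured genes listed as other FXR targets 1 had an unadjusted p under 0.05 for genotype, on the lower side as did 4.85% of all probe sets, and the median of the list lay -0.01 from the median probe set. Pltp, the phospholipid transfer protein, read 1.04, 0.83 and 0.54 in WT and 0.35, 0.29 and 0.39 in HMGB2-KO, without overlap (difference -0.46 ± 0.16 SE, limma adjusted p 0.852). With arrays centred its limma unadjusted p was 0.0587 and 0 of the 19 were under 0.05. The hormone gene Fgf21 had a WT mean of 0.15 ± 0.32 (SD, n = 3) and an HMGB2-KO mean of -0.15 ± 0.13, and the difference of -0.30 was -0.13 without WT replicate 2 and -0.45 without WT replicate 3. The proteoglycan gene Sdc1 stood at -0.18 ± 0.08 and -0.47 ± 0.50, a difference of -0.29 that went to -0.58 when HMGB2-KO replicate 3 was left out and to -0.11 when HMGB2-KO replicate 1 was. By liver number, Lpin1, a phosphatidate phosphatase, had means of 3.94, 5.38 and 0.28 (limma adjusted p 0.0961), and Cyp4a14, a fatty acid hydroxylase, had means of -0.49, -0.12 and -3.43 (limma adjusted p 0.209). Both were lowest at number 3 in each genotype. With 1 array left out, the spread of number means ran from 4.17 to 6.03 for Lpin1 and from 2.69 to 4.08 for Cyp4a14.

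**Figure D4:**
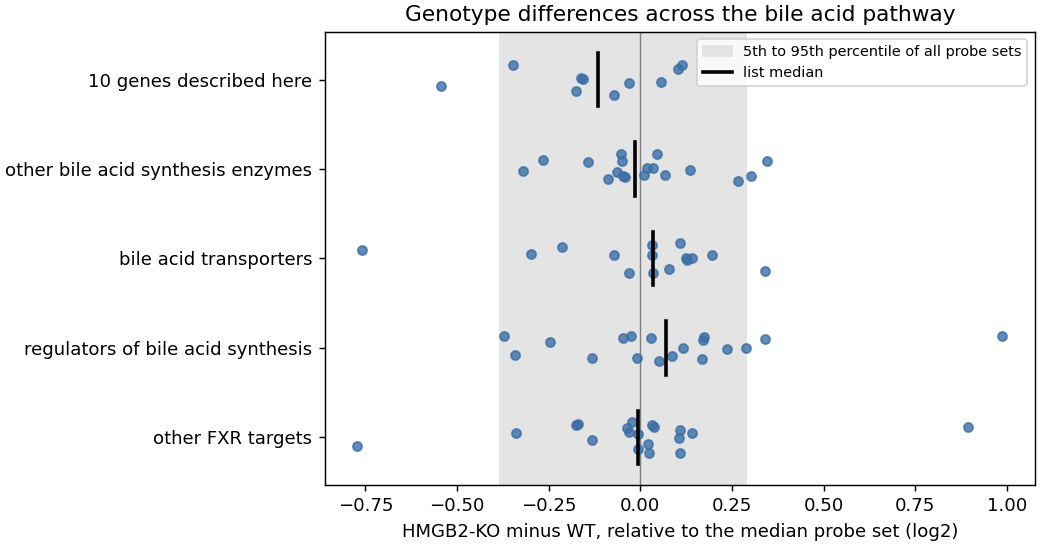
Genotype difference in log2 units, HMGB2-KO minus WT and relative to the median probe set (horizontal axis), 1 point per gene, for the 10 genes and 4 lists of the pathway. Black bars are list medians, and the grey band from -0.38 to 0.29 holds the probe sets between the 5th and 95th percentile. Most points of every list lie inside the band.

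Of the 10 genes, 4 spanned at least 1 log2 unit over the 6 centred arrays, namely Cyp7a1, Klb, Cyp8b1 and Nr0b2, where 11.4% of all probe sets did so. For each of these, the 2 genes with the nearest profile were found by root mean square distance over the 6 arrays, among 18128 genes. Nearest to Cyp7a1 were Ddc (0.36) and Inhbe (0.38), where the own spread of Cyp7a1 on the same measure was 0.93. Nearest to Cyp8b1 were Acaa1b (0.14) and B4galt1 (0.19), with an own spread of 0.49. Nearest to Nr0b2 were Tmprss11f (0.07) and Mtmr4 (0.08), with an own spread of 0.39. Nearest to Klb were Cyp2c38 (0.17) and Lhpp (0.25), with an own spread of 0.63. None of the 4 genes was among the nearest 2 of another.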

How the data were processed

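RNA of 6 livers of male mice was hybridised to Clariom S mouse arrays, 1 per liver, per the labels' protocols. The authors deposited a table of log2 values centred per gene, with 22206 rows and 1 column per array. The sources used here give no log base, software, background correction or genome build. The other deposited value table held the same values for all 22203 probe sets with a symbol. Groups came from the titles.

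Genotype was fitted with limma 3.58.1 in R 4.3.3 (lmFit, eBayes, two-sided, Benjamini-Hochberg at 0.05 over all 22203). Liver number was tested by a moderated F-test with genotype as covariate. Tables were handled in Python 3.11.15. Named were all 10 genes, Hmgb2, up to 3 genes per list with the smallest p for genotype and up to 2 for liver number, and up to 4 clock genes. Members and lists were chosen with earlier results of these data known. Fits were tested on simulated data. Alternatives were array centring, quantile normalization, robust eBayes, array weights, averaging by symbol, the number as a block, no genotype covariate and leaving out each array. The number of arrays limits the precision.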

Additional observations from a re-analysis of the deposited data

How the results depend on the processing

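Genotype calls at the adjusted threshold stayed at 0 under every alternative except array weights (6). Unadjusted p under 0.05 held for 1092 probe sets, for 2957 with array weights, for 722 without WT replicate 2 on centred arrays, and for 720 to 2124 with 1 array left out. Of the 10 bile acid genes, 0 had such a p, against 2 with array weights and 0 to 2 with 1 array left out. Their median relative to the median probe set ran from -0.20 to 0.01 with 1 array left out. Turned differences were those of Cyp8b1 (0.10 on centred arrays with or without the replicate block, 0.0621 with array weights), Baat (0.11 on centred arrays with or without the block, 0.11 with quantile normalization), Slc27a5 (0.0523 on centred arrays with or without the block, 0.0706 with quantile normalization) and Mafg (-0.0123 without WT replicate 2 on centred arrays). With 1 array left out, differences ran from -0.73 to 0.33 for Cyp7a1, -0.31 to 0.26 for Cyp8b1, -0.0735 to 0.0841 for Baat and -0.0407 to 1.36 for Mafg. The causes were not tested. Counts of unadjusted p under 0.05 for the enzymes, transporters, regulators and FXR targets were 0, 1, 0 and 0 with arrays centred, and 2, 1, 1 and 2 with the replicate block.

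With the liver number as a replicate block, 1272 probe sets and 1 of the 10 genes, Klb, had an unadjusted p under 0.05 for genotype (limma unadjusted p 0.0285, adjusted p 0.794), also 1 on centred arrays, and 0 probe sets passed the adjusted threshold. Deviations from the genotype mean correlated at 0.02, 0.13 and 0.27 between livers numbered 1, 2 and 3. For HMGB2-KO replicates 2 and 3 the best-correlated WT liver had the same number. HMGB2-KO replicate 1 correlated best with WT replicate 2, at 0.11. Whether equal numbers belong together was not tested. The liver number test called 2 probe sets, against 0 with quantile normalization, 18 with robust eBayes, 10 without the genotype covariate, 1 without WT replicate 2 on centred arrays and 0 to 237 with 1 array left out. Its unadjusted p under 0.05 held for 1297 probe sets, or 850 to 3460 with 1 array left out. Of the 10 genes 1 had such a p, or 2 with array weights, 2 without WT replicate 2 on centred arrays and 0 to 2 with 1 array left out. With 1 array left out, 1 number rests on a single liver, assumed to vary like the others. A filter on dim probe sets was not run, since centring per gene removed brightness.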

Other observations

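Markers of other liver cell types were set beside these genes, with medians over each list on centred arrays. Of 8 cholangiocyte markers, 1 lay lower and 1 higher in HMGB2-KO with a limma unadjusted p under 0.05, and 0 passed the adjusted threshold. Of all probe sets 4.85% lay lower and 0.0721% higher at that unadjusted level. The 2 cholangiocyte genes named here were chosen after their values were seen. Spp1, an extracellular phosphoprotein, read -0.33, 0.03 and 0.23 in WT and 0.75, 0.30 and 0.51 in HMGB2-KO, without overlap (limma adjusted p 0.852). Muc1, a membrane mucin, read 0.16, 0.27 and 0.07 in WT and -0.16, -0.40 and -0.19 in HMGB2-KO, also without overlap (limma adjusted p 0.852). Without overlap, 10.9% of all probe sets had HMGB2-KO lower and 0.779% had it higher. Macrophage markers had list medians from 0.20 to 0.46 in WT and from 0.18 to 0.55 in HMGB2-KO. In HMGB2-KO minus WT all 8 of them lay above the median probe set, with a list median of 0.15 relative to it. Of all 22203 probe sets 11101 lay above it. The shift was not particular to macrophage markers, since 7 of 9 hepatocyte markers lay above it too, with a list median of 0.11. Of the cholangiocyte markers 4 lay above it and 4 below. Of the 8 macrophage markers, 0 had a limma unadjusted p under 0.05. Endothelial markers had list medians from 0.55 to 0.69 in WT and from 0.64 to 0.73 in HMGB2-KO. In HMGB2-KO minus WT 5 of the 8 lay above the median probe set and 3 below, with a list median of 0.03 relative to it. The 1 of 8 at an unadjusted p under 0.05 was Pecam1, also named after its values were seen. It was higher in HMGB2-KO (limma unadjusted p 0.0346, adjusted p 0.852). Stellate, lymphocyte and ileal markers had 0 genes at that level for genotype, and 0 hepatocyte markers of 9 measured. The ileal list includes Fgf15, the intestinal hormone of the feedback loop, which read -0.20, 1.06 and -0.03 in WT and 0.23, -0.03 and -0.14 in HMGB2-KO.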
